A study of Oryza sativa with 6 samples.

Results

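The 6 genes described here are the rice members of the ICE, MPK3 and DREB1 cold signalling route, chosen by gene identifier out of 39367 genes in the deposited table. They are the bHLH factors ICE1 (Os11g0523700) and ICE2 (Os01g0928000), the kinase gene MPK3 (Os03g0285800), and DREB1A (Os09g0522200), DREB1B (Os09g0522000) and DREB1C (Os06g0127100). RNA from rice panicles was sequenced in 6 libraries. The 3 CTB3-cr1 libraries came from a line labelled as a knockdown of CTB3, which the column headings call KO, and the 3 libraries of wild-type Nipponbare served as its reference. Every panicle had been in the cold treatment abbreviated CS-PT for 1 day, so CTB3-cr1 and Nipponbare were compared under cold only, and no untreated panicle was analysed here. CTB3-cr1 stands for 1 line, so an effect of CTB3 and any other difference between that line and Nipponbare cannot be told apart. The labels and the table give no identifier for CTB3, so its own transcript was not analysed here.

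Rice senses chilling partly through a chain of transcription factors. ICE proteins are bHLH factors that are present before cold arrives and bind the promoters of DREB1 genes, also called CBF genes, whose products in turn switch on protective genes through the DRE element. MPK3 is a mitogen-activated protein kinase. In rice it phosphorylates ICE1, which shields ICE1 from the ubiquitin ligase HOS1, and a known target of ICE1 is the trehalose-6-phosphate phosphatase gene TPP1. In Arabidopsis the CBF genes respond to cold as an early and transient pulse of transcription, and ICE proteins also pair with the stomatal factors SPEECHLESS, MUTE and FAMA.

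Library totals ran between 14422565 and 16982031 gene counts. Nipponbare replicate 2 lay apart on the first principal component, with a score of 80.3 against -54.8 to 17.2 in the other 5 libraries, and Nipponbare replicate 3 lay apart on the second, with 67.1 against -43.0 to 20.9. All 9 spikelet markers, mostly MADS-box genes, were expressed, with a summed level of 1217 to 1269 CPM (counts scaled to the library size) in CTB3-cr1 and 1066 to 1385 CPM in Nipponbare. Summed over 5 leaf genes the level was 1206 to 1514 CPM in CTB3-cr1 and 1143 to 2650 CPM in Nipponbare, the highest value being Nipponbare replicate 2. The 6 tapetum and anther markers summed to 1071 to 1356 CPM in CTB3-cr1 and to 1677 to 2468 CPM in Nipponbare, so these sums did not overlap. Taken singly, 0 of these 6 genes reached an adjusted p under 0.05 in edgeR, and 10.5% of all genes past the expression filter did not overlap. A sum can rest on its most abundant genes, and the part of these markers in the results below was not tested. Of 5 endosperm genes 2 had no count in any library.

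No member passed the test between genotypes. An adjusted p under 0.05 was reached by 0 of 6 members in edgeR's quasi-likelihood test, where 0.078% of 25636 genes past the expression filter passed and 0.0866% of 33504 genes passed without that filter. At an unadjusted p under 0.05 the count was 0 of 6 as well, against 5.25% of tested genes. DESeq2 called 0 members against 0.715% of its genes, giving no adjusted p for DREB1A and DREB1B, and limma-voom called 0 against 0.0897% of the genes past the filter. The authors' deposited table calls 0.621% of its genes and none of the 6. CPM values of the genotypes overlapped for all 6 members. They did not overlap in 10.5% of the genes past the filter, with CTB3-cr1 above in 5.11% and below in 5.36%. So few members, 3 of them below that filter, cannot be told apart from that share. ICE1, ICE2 and MPK3 had at least 159 counts in every library, while DREB1A, DREB1B and DREB1C had at most 10.

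**Figure D1:**
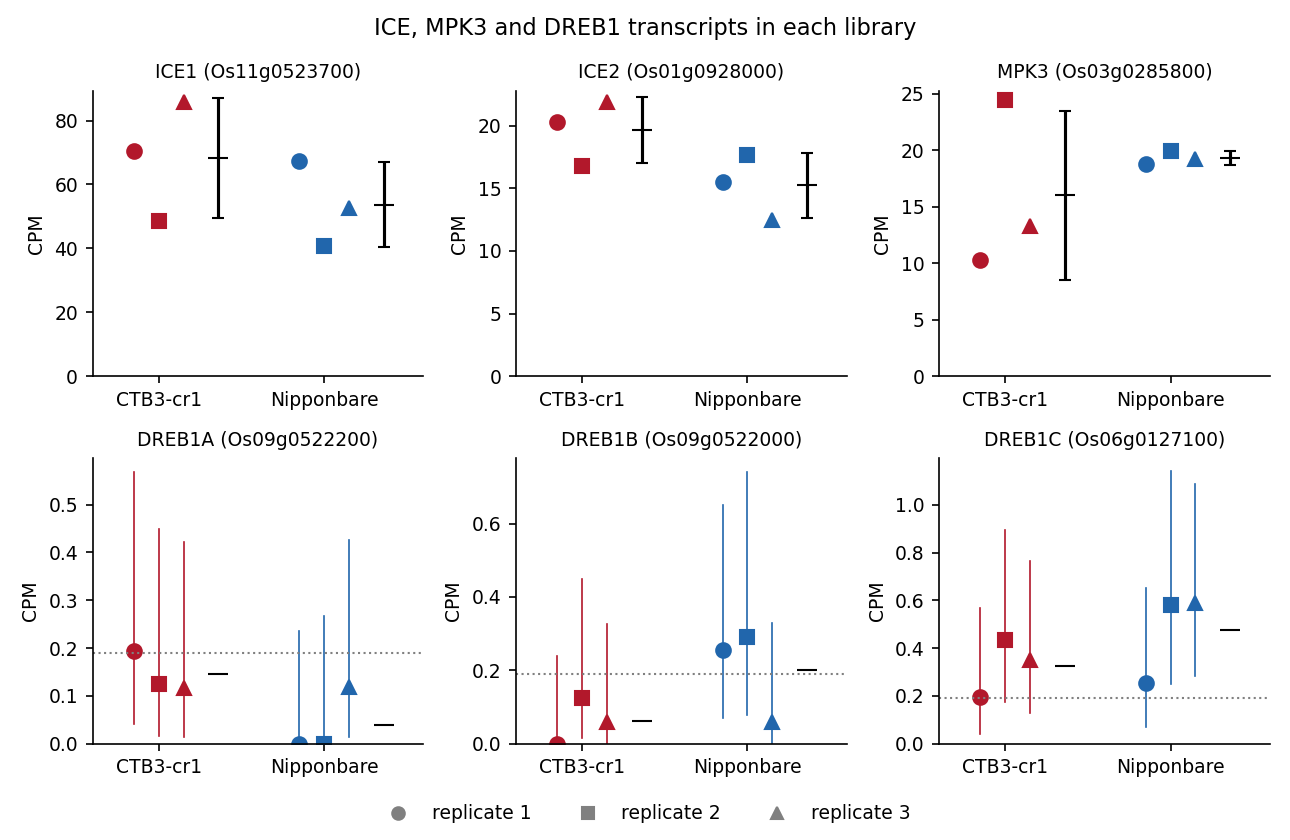
CPM of the 6 genes in each CTB3-cr1 and Nipponbare library, one panel per gene with its own linear axis from 0. Black bars beside the points are the mean, with the SD for ICE1, ICE2 and MPK3; thin lines in the DREB1 panels are exact Poisson 95% intervals of the count and the dotted line is the mean level of 3 counts. The genotypes overlap in every panel, and the DREB1 points lie between 0 and 0.591 CPM.

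ICE1 was the most abundant member. It lies on chromosome 11 from 18922046 to 18925254 on the plus strand, in the coordinates the authors deposited; the sources used here name no build for them. Its counts were 1086, 783 and 1470 in CTB3-cr1 replicates 1, 2 and 3, against 1060, 564 and 891 in Nipponbare replicates 1, 2 and 3. Scaled to depth these were 70.5, 48.6 and 85.9 CPM in CTB3-cr1 and 67.5, 40.8 and 52.6 CPM in Nipponbare. The highest library belonged to CTB3-cr1 and the lowest to Nipponbare, but CTB3-cr1 replicate 2 lay below both Nipponbare replicates 1 and 3. The means were 68.3 CPM ± 18.8 in CTB3-cr1 and 53.6 CPM ± 13.3 in Nipponbare (SD, n = 3 each). The log2 fold change of CTB3-cr1 over Nipponbare was 0.35 ± 0.25 (SE), with a 95% interval from -0.24 to 0.94 and an edgeR adjusted p of 0.996. On the fold scale that interval runs between 0.848 and 1.91. In a bulk sample fewer cells of a type and less RNA per cell cannot be told apart, for this and every other gene here. Single libraries weighed on the size of the difference: it was 0.16 on the log2 scale without CTB3-cr1 replicate 3, 0.19 without Nipponbare replicate 2 and 0.55 without Nipponbare replicate 1. Without CTB3-cr1 replicate 2 it was 0.54.

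ICE2, the paralog of ICE1, is on chromosome 1 from 40714216 to 40717112 on the minus strand. CTB3-cr1 libraries had 313, 270 and 375 counts and Nipponbare libraries had 244, 244 and 211. All 3 raw counts in CTB3-cr1 exceeded the Nipponbare counts, but after scaling CTB3-cr1 replicate 2, at 16.8 CPM, lay below Nipponbare replicate 2, at 17.7 CPM. The remaining values were 20.3 and 21.9 CPM in CTB3-cr1 replicates 1 and 3, against 15.5 and 12.5 CPM in Nipponbare replicates 1 and 3. Means were 19.7 CPM ± 2.64 in CTB3-cr1 and 15.2 CPM ± 2.61 in Nipponbare (SD, n = 3 each), and the log2 fold change was 0.37 ± 0.18 (SE). Its 95% interval, from -0.05 to 0.79, was the narrowest among the members, and the edgeR adjusted p was 0.969. By unadjusted p, ICE2 ranked 2066 of 25636 genes, the nearest of the members to the top. The authors' deposited table gives it a log2 fold change of 0.37 with an adjusted p of 1.000.

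Both ICE genes thus had positive log2 fold changes of nearly the same size, and neither passed. Per length of gene, ICE1 averaged 34.4 FPKM ± 9.32 in CTB3-cr1 and 27.0 FPKM ± 6.77 in Nipponbare, and ICE2 averaged 13.3 FPKM ± 1.74 in CTB3-cr1 and 10.3 FPKM ± 1.74 in Nipponbare (SD, n = 3 each). FPKM are the authors' values scaled to gene length and depth. Over all libraries the FPKM of ICE1 exceeded that of 85.0% of the genes with at least 1 count, and ICE2 exceeded 66.1% of them. The FPKM ratio of ICE1 to ICE2 was 2.57, 2.15 and 2.91 in CTB3-cr1 and 3.22, 1.72 and 3.13 in Nipponbare. ICE1 was therefore the higher transcript in each of the 6 libraries. The balance between the paralogs overlapped between genotypes, with a two-sided exact permutation p of 0.800 in a design that cannot go below 0.1.

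MPK3 is on chromosome 3 from 9847723 to 9850384 on the minus strand. The table names it multiple stress responsive MAP kinase 2, a name that the RefSeq gene table (assembly ASM3414082v1) lists together with MPK3 and MAPK5. Counts were 159, 395 and 227 in CTB3-cr1 and 295, 276 and 326 in Nipponbare. In CPM the CTB3-cr1 libraries stood at 10.3, 24.5 and 13.3 and the Nipponbare libraries at 18.8, 20.0 and 19.3. The Nipponbare values were nearly equal, while CTB3-cr1 held both the highest library of all, replicate 2, and the 2 lowest. Means were 16.0 CPM ± 7.49 in CTB3-cr1 and 19.3 CPM ± 0.610 in Nipponbare (SD, n = 3 each). The log2 fold change was -0.27 ± 0.30 (SE), with a 95% interval from -0.98 to 0.44 and an edgeR adjusted p of 0.996. This value rested on the CTB3-cr1 libraries: it was -0.71 without replicate 2 (edgeR adjusted p = 0.703), -0.03 without replicate 1 (edgeR adjusted p = 0.999), and -0.14 without replicate 3. MPK3 and ICE2 had closely similar levels per length, at a mean of 11.7 FPKM for MPK3 and 11.8 FPKM for ICE2 over the 6 libraries.

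**Figure D2:**
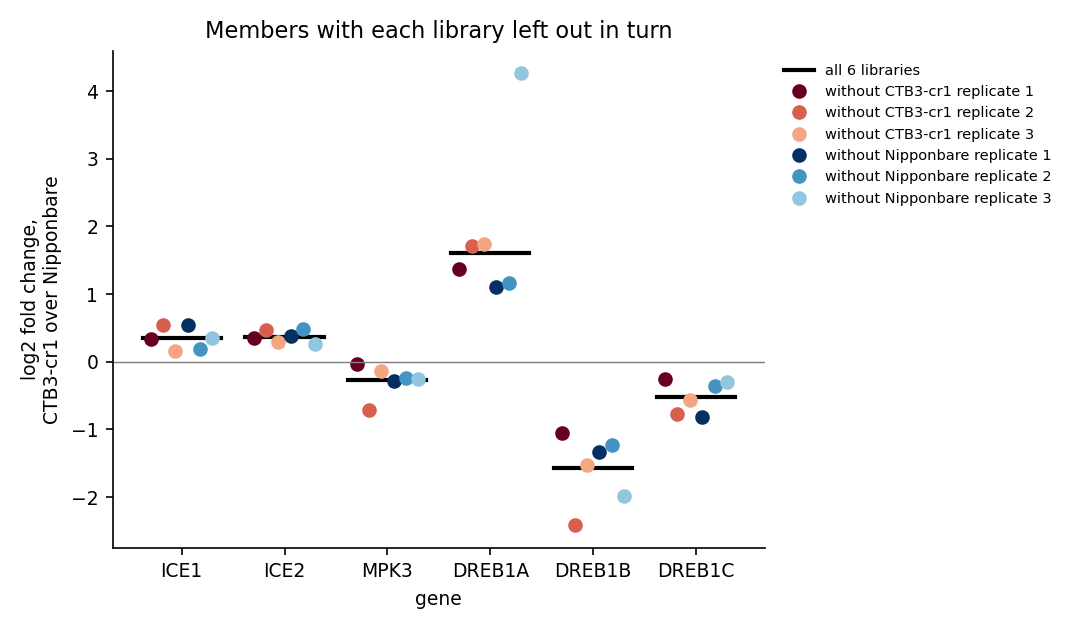
Log2 fold change of CTB3-cr1 over Nipponbare for each gene with all 6 libraries (black line) and with each library left out in turn (coloured points). ICE1 and ICE2 stay above 0 and MPK3 stays below 0, between -0.71 and -0.03; the point for DREB1A at 4.26 is a fit against Nipponbare libraries that hold no count, and its size depends on the prior count of the model.

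DREB1A, DREB1B and DREB1C are AP2-domain factors that bind the DRE element, and all 3 lay below the expression filter. Together they took 26 counts in the CTB3-cr1 libraries and 33 counts in the Nipponbare libraries. A gene was regarded as near the detection limit when it had fewer than 10 counts in every library. DREB1A and DREB1B met that definition. DREB1C missed it by its highest library, Nipponbare replicate 3, which had exactly 10 counts. A level of 3 counts corresponds to 0.175 to 0.217 CPM, depending on the library. Exact Poisson 95% intervals of a count of 0 reach somewhat higher, to 0.235 CPM for DREB1A in Nipponbare replicate 1 and to 0.267 CPM in Nipponbare replicate 2. Intervals and limits of this kind cover counting error only.

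DREB1A lies on chromosome 9 from 20403413 to 20404332 on the minus strand. It had 3, 2 and 2 counts in CTB3-cr1 and 0, 0 and 2 in Nipponbare. Each CTB3-cr1 library thus held a few reads, and 2 of the 3 Nipponbare libraries held none. The summed counts of 7 in CTB3-cr1 and 2 in Nipponbare gave a depth-scaled ratio of 3.34, with a 95% exact counting interval of 0.636 to 33.0. In the fit without a filter the log2 fold change was 1.61, with an interval from -1.23 to 4.45 (edgeR adjusted p = 0.927). A hypothetical gene, Os09g0522500, is annotated on the opposite strand inside DREB1A. It had 0 counts in every library, and without a known strand setting the reads of such a pair cannot be told apart.

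DREB1B lies on chromosome 9 from 20395262 to 20395703, also on the minus strand, and its deposited length of 442 bases is the shortest of the DREB1 genes in the table. Counts were 0, 2 and 1 in CTB3-cr1 and 4, 4 and 1 in Nipponbare. CTB3-cr1 replicate 3 and Nipponbare replicate 3 had the same single read. Its ratio of CTB3-cr1 to Nipponbare was 0.318 from 3 and 9 counts, with an exact counting interval of 0.0554 to 1.28, and the log2 fold change was -1.56 with an interval from -4.15 to 1.03 (edgeR adjusted p = 0.927). DREB1A and DREB1B therefore had fold changes of opposite sign, and each interval spanned 0.

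DREB1C is on chromosome 6 from 1434770 to 1435533 on the plus strand and had counts in every library, with 3, 7 and 6 in CTB3-cr1 and 4, 8 and 10 in Nipponbare. The values interleaved. Summed counts of 16 in CTB3-cr1 and 22 in Nipponbare gave a ratio of 0.695 with an exact counting interval of 0.341 to 1.38. The log2 fold change was -0.52 with an interval from -2.01 to 0.98 (edgeR adjusted p = 0.949). Differences within that interval remain compatible with these counts. In FPKM, DREB1C exceeded 22.8% of the genes with at least 1 count, DREB1B 18.5% and DREB1A 11.9%.

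The order of levels per length, over the 6 libraries, was ICE1, ICE2, MPK3, DREB1C, DREB1B and DREB1A, with means of 30.7, 11.8, 11.7, 0.517, 0.292 and 0.0990 FPKM. ICE2 and MPK3, neighbours in that order, did not differ beyond their spread, since the libraries of ICE2 lay between 8.46 and 14.8 FPKM, inside those of MPK3. DREB1C and DREB1B overlapped, with 0.251 to 0.764 FPKM for DREB1C and 0 to 0.643 FPKM for DREB1B. DREB1A, at 0 to 0.209 FPKM, overlapped with DREB1B and not with DREB1C. The highest DREB1A value and the lowest DREB1C value were both 3 counts, in CTB3-cr1 replicate 1. The gap between them follows from the deposited lengths of 920 and 764 bases, so it is no separation in counts.

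The rest of the DREB1 family gave the low counts of these 3 genes a context. Of 6 further DREB1 genes in the table only DREB1D (Os06g0165600), described as a CRT/DRE binding factor, passed the filter. It had 55, 50 and 50 counts in CTB3-cr1 and 48, 50 and 46 in Nipponbare. DREB1D averaged 3.20 CPM ± 0.334 in CTB3-cr1 and 3.13 CPM ± 0.456 in Nipponbare (SD, n = 3 each), and its log2 fold change was 0.03 ± 0.26 (SE; edgeR adjusted p = 0.996). It supplied 299 of the 386 counts of all 9 DREB1 genes, which is 77.5%. The other 5 genes had between 1 and 14 counts in all. DREB1H (Os09g0522100) sits between DREB1B and DREB1A on chromosome 9 and had 2, 5 and 0 counts in CTB3-cr1 and 1, 1 and 5 in Nipponbare. DREB1F (Os01g0968800) had 0, 6 and 3 counts in CTB3-cr1 and 1, 0 and 0 in Nipponbare, a ratio of 8.59 with an exact counting interval of 1.19 to 377. That interval takes no account of the spread between replicates. The edgeR fit does, and its log2 fold change of 2.71 had an interval from -0.79 to 6.21 (edgeR adjusted p = 0.927). DREB1F was named after its values were seen.

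**Figure D3:**
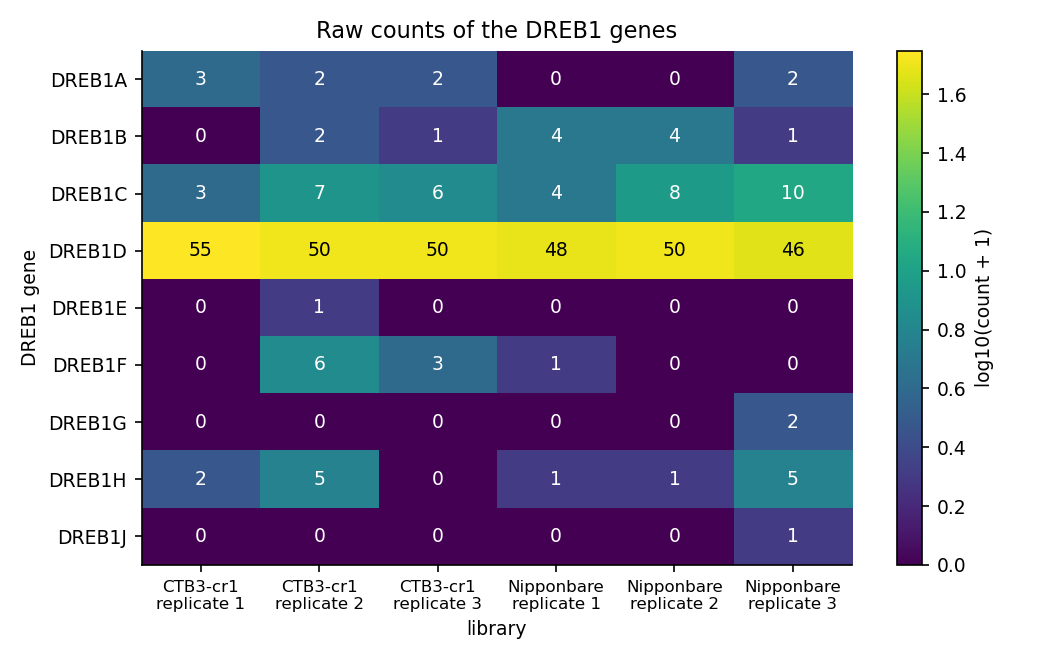
Raw counts of 9 DREB1 genes (rows) in the 6 libraries (columns, CTB3-cr1 at left), coloured by log10(count + 1). DREB1D holds 46 to 55 counts in each library, and no other DREB1 gene exceeds 10 in any library.

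Genes that flank the members on the chromosome, 1 on each side, served as a local comparison. None of those tested passed (lowest edgeR adjusted p = 0.996). ASCORBATE PEROXIDASE 1 (Os03g0285700), an enzyme that removes hydrogen peroxide and lies next to MPK3, averaged 482 CPM ± 121 in CTB3-cr1 and 441 CPM ± 145 in Nipponbare (SD, n = 3 each). Next to ICE1, AUXIN RESPONSE FACTOR 1 (Os11g0523800) averaged 419 CPM ± 49.7 in CTB3-cr1 and 419 CPM ± 80.3 in Nipponbare (SD, n = 3 each). Beside DREB1B, the gene Os09g0521900, a Holliday junction resolvase named reduced ADH activity, was expressed at 20.6 CPM ± 1.38 in CTB3-cr1 and 19.4 CPM ± 1.71 in Nipponbare (SD, n = 3 each). The low counts of DREB1B thus stood directly beside a gene with 248 to 361 counts a library. DREB1A had no such neighbour: DREB1H had at most 5 counts in any library and Os09g0522500 had 0.

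Pathway genes around the members were described through 8 lists holding 68 genes, of which 50 passed the filter. None of the 50 was called by edgeR, where 0.078% of all genes tested were called, and 2 had an unadjusted p under 0.05, against 5.25% of all genes. DESeq2 called 1 of the 50, the phosphatase gene TPP1, where it called 0.715% of its genes, and limma-voom called 0, where it called 0.0897%. Beside 10.5% of all genes past the filter, the genotypes did not overlap in 3 of the 50, too few genes to tell apart from that share. These were MPK16 (Os01g0643800) and MKK3 (Os06g0473200), both kinases of the MAP kinase cascade, and TPP1. MPK16 averaged 17.8 CPM ± 0.565 in CTB3-cr1 and 14.5 CPM ± 1.25 in Nipponbare, and MKK3 averaged 39.9 CPM ± 1.30 in CTB3-cr1 and 35.9 CPM ± 2.55 in Nipponbare (SD, n = 3 each). The median log2 fold change of all genes tested was -0.00.

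Among the 6 regulators of ICE1 protein, 4 lay above 0 and 2 below on the log2 fold scale, around a median of 0.04 that lay between -0.01 and 0.08 over the alternatives. SAPK9 (Os12g0586100), an abscisic acid-activated kinase related to the Arabidopsis kinase OST1 that phosphorylates ICE1, was the most abundant of them. It stood at 211, 144 and 146 CPM in CTB3-cr1 and at 108, 91.8 and 146 CPM in Nipponbare. CTB3-cr1 replicate 1 was the highest library and Nipponbare replicate 3 matched the other CTB3-cr1 values. Its log2 fold change came to 0.53 ± 0.22 (SE; edgeR adjusted p = 0.938). SAPK8 (Os03g0764800), a kinase of the same family, averaged 103 CPM ± 5.92 in CTB3-cr1 and 103 CPM ± 3.63 in Nipponbare (SD, n = 3 each). HOS1 (Os03g0737200), which marks ICE1 for breakdown, had a log2 fold change of 0.06 ± 0.13 (SE), and the SUMO ligase gene SIZ1 (Os05g0125000), whose Arabidopsis counterpart stabilises ICE1, had 0.10 ± 0.11 (SE).

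No mitogen-activated protein kinase and no kinase upstream of them passed the test. In the MAP kinase list, 12 of 20 genes had a positive log2 fold change and the median was 0.03. The sign of that median turned when 1 library was left out, to -0.04 without CTB3-cr1 replicate 2, -0.05 without Nipponbare replicate 3 and -0.01 without Nipponbare replicate 2. The list was found by words in the deposited names and includes 4 WNK kinases, which are a separate family. MPK6 (Os06g0154500), a close relative of MPK3, averaged 63.9 CPM ± 2.71 in CTB3-cr1 and 63.7 CPM ± 1.06 in Nipponbare (SD, n = 3 each), so it was steady where MPK3 was scattered in CTB3-cr1. A further gene deposited under the name MAP kinase 6, Os10g0533600, averaged 27.8 CPM ± 1.21 in CTB3-cr1 and 26.9 CPM ± 1.55 in Nipponbare (SD, n = 3 each). Os06g0699400, named MAP kinase 4, averaged 95.7 CPM ± 5.61 in CTB3-cr1 and 90.7 CPM ± 20.1 in Nipponbare (SD, n = 3 each). The smallest p in this list belonged to a WNK kinase, Os12g0114100, whose log2 fold change was -0.73 ± 0.33 (SE; edgeR adjusted p = 0.953). Another gene, Os02g0148100, is described in the table as MAP kinase 3 and is not the member here; its log2 fold change was 0.02 ± 0.12 (SE). Among the 7 tested MAP kinase kinases the median was 0.01, and it lay between -0.11 and 0.04 over the alternatives. MKK4 (Os02g0787300), listed as SMALL GRAIN 1, had -0.19 ± 0.12 (SE), and MKK6 (Os01g0510100) had -0.06 ± 0.20 (SE).

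Regulators of DREB1 transcription also had point estimates close to 0, and none passed the test. Over the 5 genes the log2 fold changes ran from -0.11 to 0.05, around a median of -0.04 that lay between -0.09 and 0.00 over the alternatives. The lowest belonged to PIL14 (Os07g0143200), whose 95% interval ran from -0.95 to 0.73, so larger differences remain compatible with its counts. PHYB (Os03g0309200), the red-light receptor phytochrome B, averaged 97.9 CPM ± 3.34 in CTB3-cr1 and 101 CPM ± 2.91 in Nipponbare (SD, n = 3 each). MYB3R-2 (Os01g0841500), a MYB factor of cold tolerance, averaged 38.3 CPM ± 0.426 in CTB3-cr1 and 40.6 CPM ± 2.77 in Nipponbare (SD, n = 3 each). MYBS3 (Os10g0561400), a repressor of DREB1 genes in rice, had a log2 fold change of 0.05 ± 0.17 (SE).

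**Figure D4:**
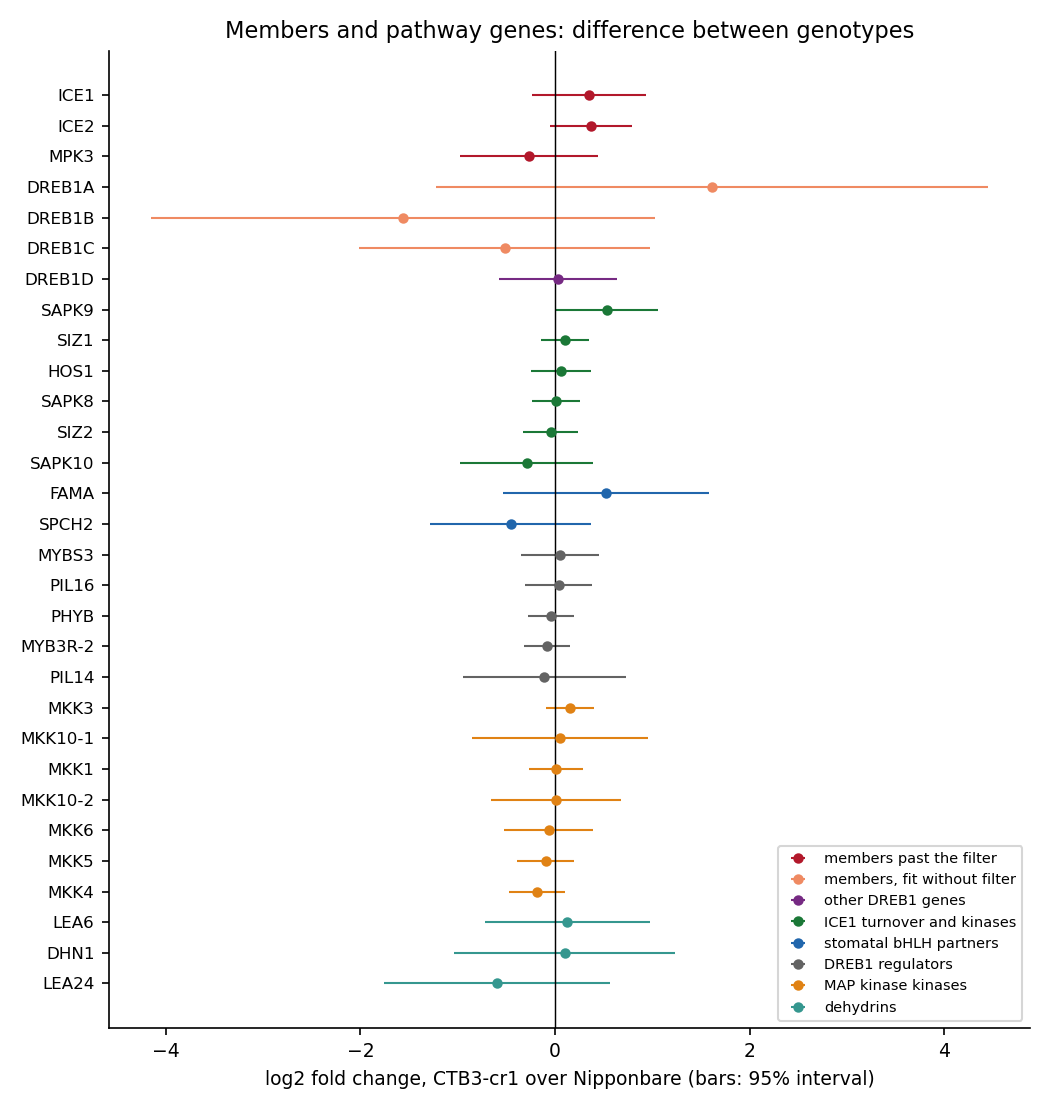
Log2 fold change of CTB3-cr1 over Nipponbare (points) with 95% intervals (bars) for the 6 members and for tested genes of 6 pathway lists. The MAP kinases and the trehalose-6-phosphate phosphatases, with TPP1 among them, are not drawn. Intervals of ICE1, ICE2 and MPK3 lie between -0.98 and 0.94, and those of DREB1A and DREB1B reach 4.45 and -4.15.

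Trehalose-6-phosphate phosphatases, the family of the ICE1 target TPP1, and dehydrins were described as well. Whether the other genes of these lists lie downstream of the route in rice was not tested. All 6 tested trehalose-6-phosphate phosphatases lay below 0 on the log2 fold scale, as did 12949 of all 25636 genes tested. Only the 95% interval of TPP1 excluded 0, and none of the 6 passed in edgeR. Their median was -0.25. That median was -0.12 without Nipponbare replicate 2 and -0.45 without Nipponbare replicate 3. TPP1 (Os02g0661100) stood at 13.8, 11.2 and 10.9 CPM in CTB3-cr1 and at 15.3, 54.4 and 30.0 CPM in Nipponbare. Its groups did not overlap, and the highest value was Nipponbare replicate 2. With a log2 fold change of -1.48 ± 0.41 (SE) its adjusted p was 0.714 in edgeR, 0.0437 in DESeq2 and 0.0444 in the authors' deposited table. The more abundant members of this list, TPP4 (Os02g0753000) and TPP9 (Os03g0386500), had -0.12 ± 0.15 (SE) and -0.14 ± 0.21 (SE).

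Dehydrins are hydrophilic proteins that protect cells from water loss and belong to the CBF regulon in Arabidopsis. The 3 that passed the filter had a median log2 fold change of 0.10, and leaving out CTB3-cr1 replicate 1 turned it to -0.45, or leaving out Nipponbare replicate 1 to -0.08. DEHYDRIN 1 (Os02g0669100) was high in CTB3-cr1 replicate 1 and Nipponbare replicate 3 and lower elsewhere, with 196, 59.5 and 103 CPM in CTB3-cr1 and 81.3, 74.6 and 178 CPM in Nipponbare. Its log2 fold change came to 0.10 ± 0.48 (SE; edgeR adjusted p = 0.996). LEA24 (Os01g0702500), with the smallest p of this list, had -0.60 ± 0.50 (SE), and LEA6 (Os01g0624400) had 0.13 ± 0.36 (SE).

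The stomatal bHLH factors that pair with ICE proteins were scarce. FAMA (Os05g0586300), which completes guard cell formation, had 37, 15 and 36 counts in CTB3-cr1 and 24, 19 and 15 in Nipponbare. SPCH2 (Os02g0257500), which starts the stomatal lineage, had 35, 30 and 28 counts in CTB3-cr1 and 26, 44 and 52 in Nipponbare. FAMA had a log2 fold change of 0.52 ± 0.45 (SE) and SPCH2 one of -0.45 ± 0.35 (SE). Neither passed (edgeR adjusted p = 0.996 for both).

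Each member past the filter was also set beside the genes whose level followed it most closely over the 6 libraries. The likeness was Pearson's r of log2(CPM + 0.1) with 5831 named genes of at least 5 CPM, given as a description. For ICE1 the closest were SHATTERING 4 (Os04g0670900), a trihelix factor of the seed abscission layer, with r of 0.985, BETA-GALACTOSIDASE 3 (Os01g0580200) with 0.983, and VIRESCENT 2 (Os03g0320900), a guanylate kinase, with 0.981. SHATTERING 4 stood at 10.3, 7.26 and 12.9 CPM in CTB3-cr1 and at 10.4, 6.88 and 7.74 CPM in Nipponbare. For ICE2 they were gamma-glutamylcysteine synthetase (Os05g0129000), an enzyme of glutathione synthesis, with 0.974, PLANT ARCHITECTURE AND YIELD 1 (Os08g0407200) with 0.971 and MND1 (Os09g0280600), named for meiotic nuclear division, with 0.965. For MPK3 they were the sugar efflux carrier gene SWEET13 (Os12g0476200) with 0.990, REDUCED CULM NUMBER 11 (Os08g0503800), a xylosyltransferase, with 0.979 and ACT DOMAIN REPEAT PROTEIN 7 (Os03g0413100) with 0.973. SWEET13 repeated the MPK3 profile, with 8.83, 17.2 and 9.76 CPM in CTB3-cr1 and 14.0, 14.9 and 14.5 CPM in Nipponbare. An r of 0.9 or more was reached by 43 genes for ICE1, 26 for ICE2 and 58 for MPK3, at most 0.995% of the candidates. All these genes share the same 6 libraries, and over so few an r this high can also arise between unrelated genes. The share that unrelated genes would give was not worked out, so no shared regulation can be read from these profiles.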

How the data were processed

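Per the labels' protocols, panicle total RNA went into NEBNext Ultra RNA libraries that were read on a NovaSeq machine. The submitters' processing notes list fastp 0.19.7, HISAT2 and DESeq2. Nothing used here names the build, annotation, counting tool or strandedness. Per the file headers, the deposited table holds raw counts per gene and FPKM for each library. It also holds, per the file headers, the authors' normalised group means (signal), their log2 fold changes and their p-values. The deposited FPKM equalled counts divided by gene length and a library total, to a relative deviation of 4.85e-08. A broken entry left 2 of 39369 lines without an identifier, at most 0.000478% of a library's counts, and these were left out.

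Genotypes were compared in R 4.3.3 by the quasi-likelihood F test of edgeR 4.0.16, after filterByExpr and TMM scaling and with genotype as the single term, with Benjamini-Hochberg adjustment over all genes tested. Genes below the filter were taken from the same fit on all genes with at least 1 count. The SE of a log2 fold change is its size over the root of F, and 95% intervals follow from it. CPM use TMM-scaled library sizes. The labels call the samples biological replicates. Replicates of a genotype always differed by more than counting noise, the lowest chi-square per degree of freedom being 15.4.

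Members and lists were chosen with earlier results of these data known. Named genes were the members, the 2 most abundant and the lowest-p gene of each list, chromosomal neighbours and the 3 genes most like each member. Genes outside that rule were chosen after their values were seen. These were HOS1, SIZ1, MYBS3, PIL14, Os02g0148100, Os10g0533600, DREB1F, MPK16, MKK3, SPCH1 and MUTE. One listed DREB1 identifier has no row in the table used here. Alternatives were DESeq2 1.42.0, limma-voom (limma 3.58.1), upper-quartile or RLE factors, no scaling factor, other filters, a replicate block, each library left out, and limma on log2(FPKM + 1) or log2(FPKM + 0.1). They were applied to the lists after seeing the data. The scripts were tested on simulated counts.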

Additional observations from a re-analysis of the deposited data

How the results depend on the processing

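The number of genes called was 20 in edgeR, 202 with DESeq2, which also applied its own filter in place of the expression filter, and 4 with the replicate block. Leaving out one library gave 6, 4 and 5 called genes for CTB3-cr1 replicates 1, 2 and 3 and 6, 7 and 16 for Nipponbare replicates 1, 2 and 3. Called members remained 0 of 6 under the other scalings, the replicate block and each library left out, and 0 under DESeq2. All 6 members kept the sign of their log2 fold change in every alternative run, 17 for ICE1, ICE2 and MPK3 and 13 for the DREB1 genes. With all 6 libraries the alternatives gave 0.33 to 0.39 for ICE1, 0.35 to 0.41 for ICE2 and -0.36 to -0.25 for MPK3. Leaving out one library gave 0.16 to 0.55 for ICE1, 0.26 to 0.49 for ICE2, -0.71 to -0.03 for MPK3, 1.10 to 4.26 for DREB1A, -2.42 to -1.05 for DREB1B and -0.81 to -0.26 for DREB1C. On log2(FPKM + 1) without a filter the DREB1 values shrank to 0.15 for DREB1A, -0.34 for DREB1B and -0.17 for DREB1C, since the pseudocount exceeds their level. DESeq2 gave no adjusted p for 2 members, DREB1A and DREB1B, and the stricter filters tested only ICE1, ICE2 and MPK3. Deviations of same-numbered libraries from their group means had correlations of -0.27, 0.37 and -0.07 for replicates 1, 2 and 3. Their signs differ, and they do not settle whether the numbers pair the libraries. With the replicate block the log2 fold changes were 0.34 for ICE1, 0.38 for ICE2 and -0.36 for MPK3. Depth limits the DREB1 genes, for which 3 counts are 0.175 to 0.217 CPM.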

Other observations

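The 2 stomatal factors below the filter, SPCH1 (Os06g0526100) and MUTE (Os05g0597000), separated libraries within each genotype. SPCH1 had 24, 0 and 3 counts in CTB3-cr1 and 0, 2 and 42 in Nipponbare. MUTE, which ends the divisions of the stomatal lineage, had 40, 0 and 6 counts in CTB3-cr1 and 1, 2 and 50 in Nipponbare. CTB3-cr1 replicate 1 and Nipponbare replicate 3 were thus high for both genes, as they were for DEHYDRIN 1, and the other 4 libraries held at most 6 counts of either. The deviations of these 2 libraries from their group means had a correlation of 0.47 over all genes past the filter, the highest of the 9 pairs across genotypes. These genes were named after their values were seen.

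The observed spread of MPK3 was wider in CTB3-cr1 than in Nipponbare. The SD of log2(CPM + 0.1) was 0.64 in CTB3-cr1 and 0.05 in Nipponbare, a ratio of 14.1, and 0.398% of the genes past the filter had a larger ratio. For ICE1 the ratio was 1.15 and for ICE2 0.787. With 3 libraries in each genotype such a ratio is a description, and it was looked at after the MPK3 values were seen.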
